A study of Mus musculus with 24 samples.

Results

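The genes described here are 35 markers of microglia, the resident macrophages of the spinal cord, and of macrophages that enter injured tissue. They were listed by name in 5 groups: 10 genes of homeostatic microglia, 8 genes shared by myeloid cells and other leukocytes, 3 Fc receptors, 9 genes of the lysosome, of lipid handling and of activation, and 5 scavenger and infiltrating macrophage genes. A gene was read from the probe set with the highest mean signal among those that name it alone. In this way 33 of the 35 were measured among 17097 genes on the ependymal arrays, and 34 of the 35 among 22180 genes on the neurosphere arrays. Olfml3b named no probe set in either table, and Siglech named one only on the neurosphere arrays.

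The study compared the central canal region of injured and sham-operated mice and, in culture, neurospheres with and without growth factors, on 24 Affymetrix arrays. The injured group held 6 adult CD1 mice aged 3 months, whose thoracic cord was exposed by laminectomy and pierced with needles beside the midline, and the sham group held 6 mice of the same strain and age with laminectomy alone. The ependymal region around the central canal was cut out by laser 3 days after surgery, so that each array holds whatever cells lay in the cut area. Neurospheres, floating clusters of stem and progenitor cells grown from adult CD1 spinal cord, came from 4 mice, each profiled in 3 conditions: growing with EGF, FGF2 and heparin, plated on a coated surface in serum without growth factors for 3 days, and returned to EGF, FGF2 and heparin for 3 days after serum was removed. Conditions of the cultures therefore differ in serum and attachment as well as in growth factors, and the labels give passage 1 and 3 days without growth factors where the methods give passage 3 and 4 days.

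Microglia keep a characteristic set of surface receptors in the healthy cord, among them the fractalkine receptor Cx3cr1, the ADP receptor P2ry12 and the colony stimulating factor receptor Csf1r, on which their survival depends. After injury they withdraw their processes, take up debris and raise genes of phagocytosis and lysosomal digestion, while monocytes and neutrophils enter from blood. Many markers of activated microglia are shared with blood-derived macrophages, and some, such as Ptprc (CD45) and Tyrobp, with neutrophils as well.

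Values are RMA signals on a log2 scale, in which a difference of 1 is a doubling, and arrays of mice 1 and 2, 3 and 4, and 5 and 6 formed 3 sets. The median signal was 5.34 to 5.36 in arrays of mice 1 and 2, 4.97 to 5.03 in those of mice 3 and 4 and 4.85 to 4.89 in those of mice 5 and 6. The labels do not say what the sets stand for, and each holds 2 injured and 2 sham mice. Besides the sets, some arrays stood apart in genes of other cell types. The mean of 14 measured neutrophil genes of 16 listed was 9.56 and 10.25 in injured mice 3 and 4 and 10.33, 10.57 and 10.06 in sham mice 3, 4 and 6, against 4.84 to 7.27 in the other 7 arrays. The mean of 14 skeletal muscle genes was 8.01 in injured mouse 6 and 8.39, 8.04 and 9.11 in sham mice 3, 4 and 6, against 4.93 to 6.22 elsewhere. Genes of ependymal cells were bright, as the label of the tissue says: the mean of 10 ependymal genes lay at 9.69 to 10.19 in injured and 10.52 to 10.97 in sham mice. After injury 6 of the 10 were lower and 1 (Vim) higher, beside 1.87% and 2.91% of all genes. The part of all these differences between arrays in the results below was not tested. In tissue cut out in bulk, more cells of a type and more RNA per cell cannot be told apart.

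After injury 7 of the 33 measured genes rose and none fell, by limma over all probe sets with Benjamini-Hochberg adjustment and a threshold of 0.05. Over all genes 2.91% rose and 1.87% fell. At an unadjusted p under 0.05, 11 of the 33 were higher and 1, P2ry12, was lower, beside 9.02% and 7.16% of all genes. The 7 were Fcrls, Msr1, Gpnmb, Cd68, Lgals3, Ms4a7 and Aif1, with 1 from the homeostatic group, 1 from the shared group, 3 from the lysosome, lipid and activation group and 2 from the scavenger group. The median difference of the 33 genes was 0.44 on the log2 scale, beside 0.02 over all genes, and 28 of the 33 had a difference above 0, as did 54.9% of all genes. With the set of mouse numbers as a block, 12 genes rose and P2ry12 fell, beside 12% of all genes that rose and 13.1% that fell. The additional genes were Cx3cr1, Fcgr1, Fcgr2b, Ctsd and Itgax. Without the 5 arrays high in neutrophil genes, 13 of the 33 rose and none fell, beside 3.63% and 2.15% of all genes. P2ry12 differed by -1.34 there (limma adjusted p = 0.11), over 4 injured and 3 sham arrays. Those arrays were chosen after values were seen, and without them no array of mice 3 and 4 is left, the set in which differences were smallest.

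**Figure D1:**
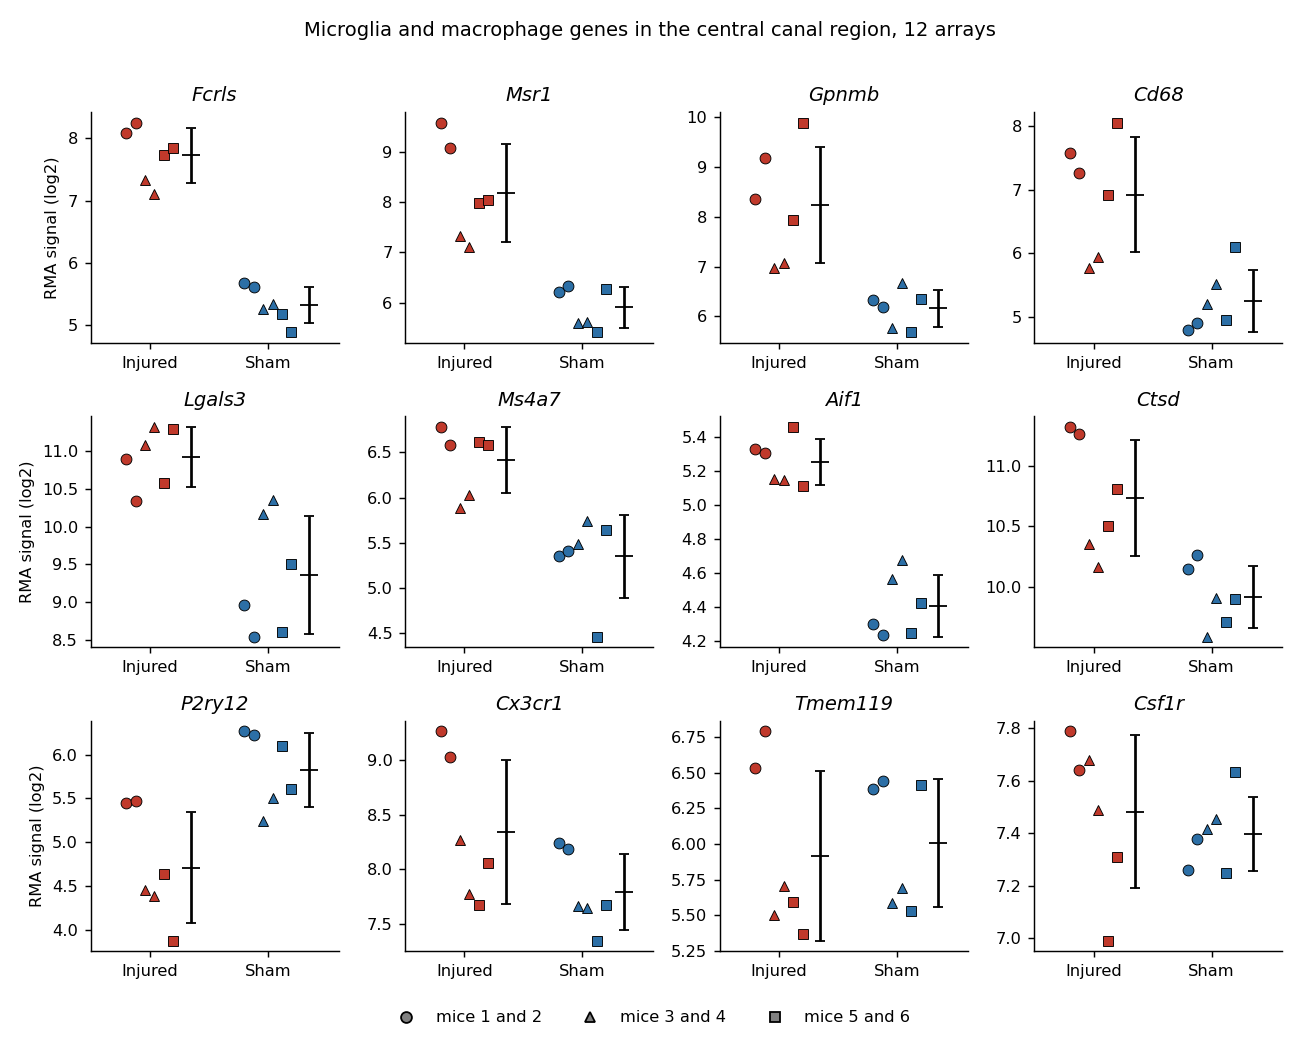
RMA signal (log2) of 12 genes in the 6 injured (red, left) and 6 sham (blue, right) mice, with a marker shape for each set of mouse numbers and the mean ± SD beside the points. All injured arrays lie above all sham arrays for Fcrls, Msr1, Gpnmb, Ms4a7 and Aif1, whereas Tmem119 and Csf1r overlap.

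Fcrls, an Fc receptor-like protein of unknown ligand that in the mouse brain marks microglia rather than blood monocytes, gave the largest fold change of the 33. Its signal ranged over 7.11, 7.79 and 8.25 (lowest, median, highest) in injured mice, and over 4.88, 5.30 and 5.68 in sham mice. The groups did not overlap, which held for 2.88% of all genes in this direction. The difference was 2.40 ± 0.20 (SE, n = 6 each), a 5.29-fold higher signal (limma adjusted p = 3.9e-05). It was 2.52 in mice 1 and 2, 1.93 in mice 3 and 4 and 2.76 in mice 5 and 6.

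The other homeostatic genes did not follow Fcrls. P2ry12, the purinergic receptor that guides microglial processes toward damage, ranged over 3.87, 4.54 and 5.47 in injured mice and 5.25, 5.86 and 6.27 in sham mice. Its groups overlapped, and most injured arrays were low. The difference was -1.12 ± 0.29 (SE, n = 6 each) and narrowly missed the threshold (limma adjusted p = 0.056). It passed with the set of mouse numbers as a block (limma adjusted p = 8.7e-04), and P2ry12 was 0.79, 0.96 and 1.6 lower on the log2 scale within the 3 sets. Cx3cr1 ranged over 7.67, 8.16 and 9.26 in injured mice and 7.34, 7.67 and 8.24 in sham mice. Its groups overlapped, with both injured mice of the first set highest. The difference of 0.55 ± 0.28 (SE) passed with the set as a block and not without it (limma adjusted p = 0.53 without it and 0.013 with it), and a dim second probe set differed by 0.04.

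Tmem119, a membrane protein used as a microglial marker, ranged over 5.37, 5.65 and 6.79 in injured mice and 5.53, 6.04 and 6.44 in sham mice. Csf1r ranged over 6.99, 7.56 and 7.79 in injured mice and 7.25, 7.40 and 7.63 in sham mice. Both genes overlapped fully between the groups. Their differences were -0.09 ± 0.28 and 0.08 ± 0.14 (SE), and neither passed in any alternative setting. Sall1, a transcription factor that keeps microglial identity in the mouse, ranged over 9.44, 10.14 and 10.36 in injured mice and 9.68, 9.87 and 10.08 in sham mice. Sall1 was also bright in neurospheres, at 7.03 to 8.14, where Ptprc, Cd53, Cd52 and Aif1 were below the array median in all 12 arrays and Spi1 and Fcer1g in none. P2ry13, a second ADP receptor, and Gpr34, a lysophosphatidylserine receptor, differed by -0.23 ± 0.22 and -0.21 ± 0.19 (SE) and did not pass either.

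**Figure D2:**
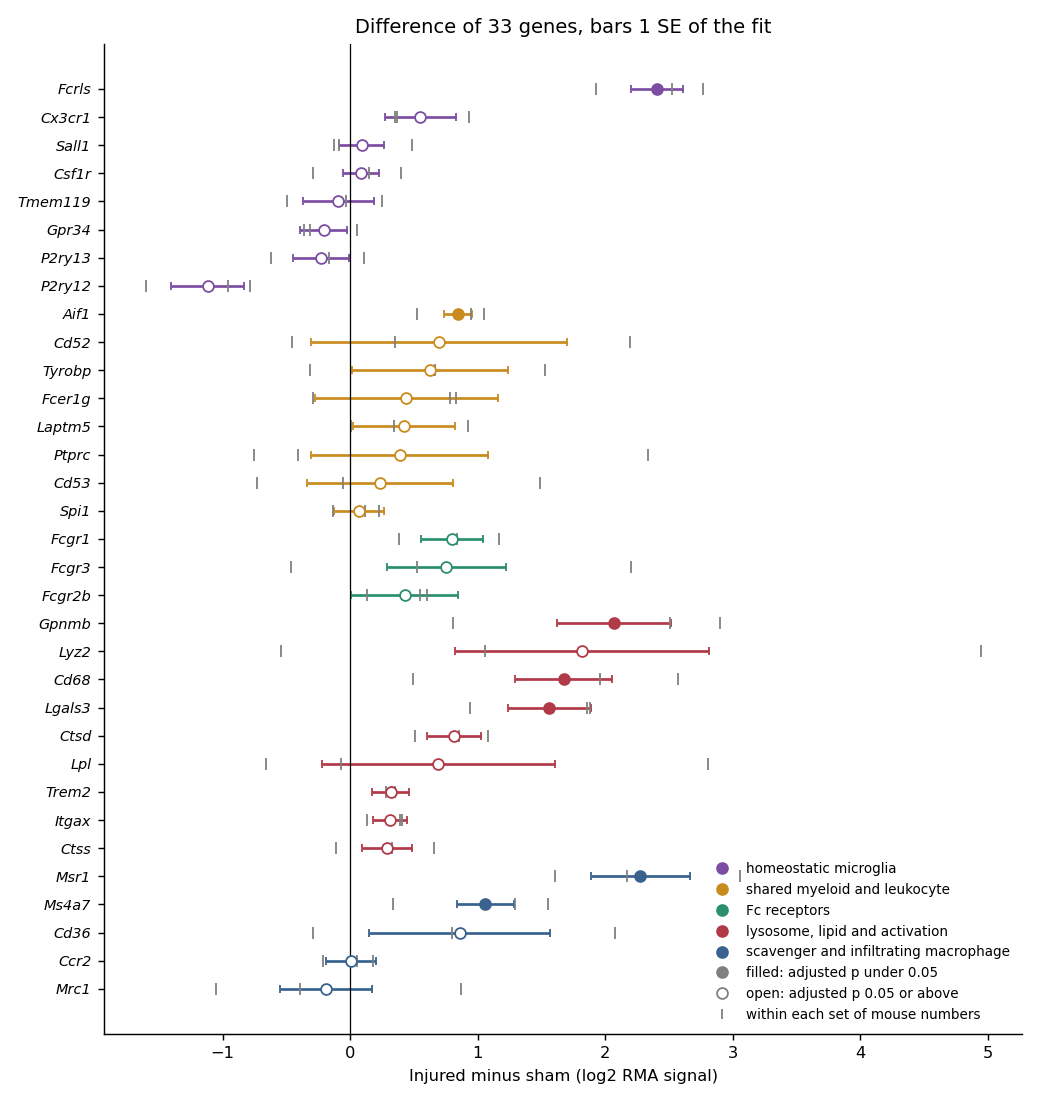
Injured minus sham difference of log2 RMA signal for the 33 measured genes, ordered within their 5 groups, with bars of 1 SE. Filled points passed an adjusted p of 0.05, and grey ticks are the differences within the 3 sets of mouse numbers. Fcrls stands apart from the other homeostatic genes, and most of the shared leukocyte genes, though not Aif1, have ticks on both sides of 0.

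Of the 8 shared myeloid and leukocyte genes only Aif1 rose, beside 2.91% of all genes. Aif1 (Iba1), an actin-bundling protein of ruffling membranes and a widely used stain for microglia and macrophages, ranged over 5.11, 5.23 and 5.46 in injured mice and 4.23, 4.36 and 4.68 in sham mice. The groups did not overlap. The difference was 0.84 ± 0.11 (SE, n = 6 each), a 1.79-fold higher signal (limma adjusted p = 8.8e-04), and 1.05, 0.53 and 0.95 within the 3 sets. The signal of Aif1 was modest, below the lower quartile of its array in 2 of the 12 arrays.

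All 8 shared genes, Aif1 among them, had a higher signal in each of sham mice 3, 4 and 6 than in any of sham mice 1, 2 and 5, and for the other 7 the sham group spanned most of the injured range. Ptprc, the CD45 phosphatase of all nucleated blood cells, ranged over 7.67, 8.38 and 9.0 in injured mice, and lay at 6.19, 6.48 and 6.37 in sham mice 1, 2 and 5 but at 8.92, 9.83 and 10.15 in sham mice 3, 4 and 6. Tyrobp (DAP12), the ITAM adaptor of Trem2 and of many myeloid receptors, was at 8.21 to 9.83 in injured mice, and at 6.93 to 7.09 in sham mice 1, 2 and 5 and 8.58 to 10.39 in sham mice 3, 4 and 6. For both genes all injured mice lay above the low sham mice and overlapped the high ones. Over all 12 arrays the differences were 0.39 ± 0.70 for Ptprc and 0.63 ± 0.61 for Tyrobp (SE). Without the 5 arrays high in neutrophil genes, which include the 3 highest sham arrays of these genes so that the choice itself moves the difference, they were 1.91 and 1.49, with 2.26 for Cd52 and 1.05 for Fcer1g. Cd52, a small leukocyte glycoprotein, and Fcer1g, the shared ITAM chain of activating Fc receptors, lay between 0.46 below and 2.19 above sham within the 3 sets. Spi1, which encodes the myeloid transcription factor PU.1, differed by 0.07 ± 0.19 (SE). The part of neutrophils in these signals was not tested.

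**Figure D3:**
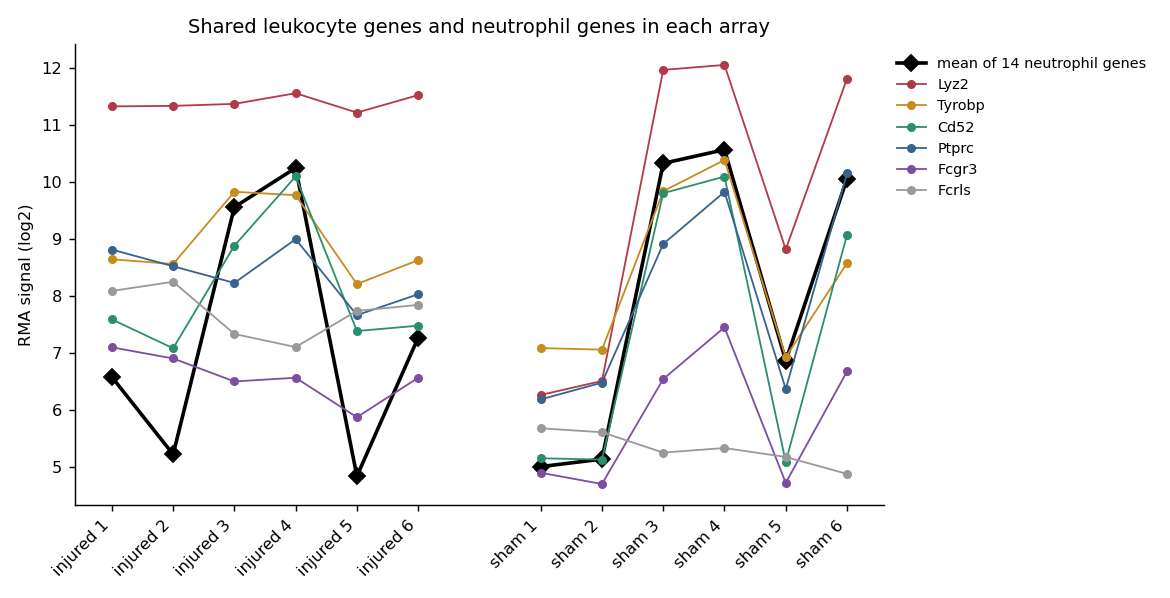
RMA signal (log2) of 6 genes and the mean of 14 neutrophil genes in each injured array (left) and each sham array (right). Sham mice 3, 4 and 6 are high in the neutrophil mean and in Lyz2, Tyrobp, Cd52, Ptprc and Fcgr3, whereas Fcrls is low in all 6 sham mice.

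Among the 3 Fc receptors, which bind the constant part of IgG on opsonised particles, none passed in the fit without a block, by limma, and 1 (Fcgr1) had an unadjusted p under 0.05. Over all genes 2.91% rose, and 9.02% were higher at that unadjusted p. Fcgr1, the high-affinity activating receptor, ranged over 4.79, 5.68 and 6.03 in injured mice and 4.38, 4.61 and 5.24 in sham mice. The groups overlapped, although within each set both injured mice were above both sham mice. On a second probe set of similar brightness Fcgr1 averaged 5.06 in injured and 4.98 in sham mice, which overlapped and did not pass. On the first, brighter probe set the difference was 0.80 ± 0.24 (SE; limma adjusted p = 0.12, and 0.0010 with the set as a block). Fcgr2b, the inhibitory receptor, ranged over 7.43, 8.39 and 9.08 in injured mice and 6.73, 7.84 and 8.85 in sham mice on its brightest probe set, a difference of 0.43 ± 0.42 (SE). Of its 4 probe sets 2 others did not overlap between the groups. One ranged from 5.94 to 6.81 in injured and from 4.68 to 5.74 in sham mice, a 2.12-fold higher signal (limma adjusted p = 0.016). The other had means of 7.5 ± 0.27 in injured and 5.14 ± 1.08 in sham mice (SD, n = 6 each), a 5.11-fold higher signal (limma adjusted p = 0.0060). The Fcgr2b probe sets thus disagree in size, and the mean of all 4 passed (limma adjusted p = 0.030). The probe set with the 5.11-fold change is of a type that can match more than 1 transcript, and Fc receptor genes resemble each other in sequence. Probe sets of such types were also those read for Aif1, Lyz2, Laptm5 and Trem2. Fcgr3, the low-affinity activating receptor, was high in the same sham mice as Ptprc. It differed by 0.75 ± 0.47 (SE) over all arrays and by 1.84 without the 5 arrays high in neutrophil genes. That choice leaves out those sham mice and so itself moves the difference.

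All 9 genes of the lysosome, lipid and activation group had a difference above 0 and 3 rose, beside 54.9% and 2.91% of all genes. Within mice 3 and 4, 6 of the 9 were above 0. Gpnmb, a transmembrane glycoprotein of phagocytes laden with lipid or debris, ranged over 6.97, 8.15 and 9.88 in injured mice and 5.68, 6.26 and 6.66 in sham mice. The groups did not overlap. The difference was 2.07 ± 0.45 (SE), a 4.20-fold higher signal (limma adjusted p = 0.022), which was smallest in mice 3 and 4, at 0.80, and 2.51 and 2.90 in the other sets. It lost the call without sham mouse 3 or 5 or injured mouse 1 (largest limma adjusted p = 0.061).

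Cd68, a lysosomal membrane protein of phagocytes, ranged over 5.78, 7.09 and 8.05 in injured mice and 4.79, 5.09 and 6.10 in sham mice. The groups overlapped through sham mouse 6 and injured mice 3 and 4. The difference was 1.67 ± 0.38 (SE), a 3.19-fold higher signal (limma adjusted p = 0.030). The call was lost in 8 of the 12 fits that left out 1 array, namely without sham mouse 1, 2, 3 or 5 or injured mouse 1, 2, 5 or 6 (largest limma adjusted p = 0.076). Without the 5 arrays high in neutrophil genes the difference was 2.56. Those arrays hold the highest sham and the lowest injured signals of Cd68, so that the choice itself moves the difference.

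Lgals3 (galectin-3), a lectin of activated macrophages that binds damaged lysosomes, ranged over 10.34, 10.98 and 11.32 in injured mice and 8.54, 9.24 and 10.36 in sham mice. The groups met at 1 injured and 1 sham array, and sham mice 3, 4 and 6 were the highest of their group for Lgals3, as they were for Cd68 and the neutrophil genes. The difference was 1.56 ± 0.32 (SE), a 2.95-fold higher signal (limma adjusted p = 0.018). Ctsd, the lysosomal protease cathepsin D, ranged over 10.16, 10.66 and 11.32 in injured mice and 9.59, 9.90 and 10.27 in sham mice. Its groups overlapped across sets, but not within any set. The difference was 0.82 ± 0.21 (SE; limma adjusted p = 0.058, and 4.1e-04 with the set as a block).

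Lyz2, lysozyme M of granulocytes and macrophages, was even in injured mice, over 11.22, 11.36 and 11.56, and uneven in sham mice, over 6.27, 10.32 and 12.06. It was high in sham mice 3, 4 and 6, as the neutrophil genes were. The difference was 1.82 ± 1.00 (SE) over all arrays and 4.15 without the 5 arrays high in neutrophil genes. Those arrays include these high sham mice, so that the choice itself moves the difference. Within the sets the difference was 4.94 in mice 1 and 2, -0.55 in mice 3 and 4 and 1.06 in mice 5 and 6. The lipid receptor Trem2 and the integrin Itgax (CD11c), genes of microglia around debris and plaques, differed by 0.32 ± 0.14 and 0.31 ± 0.13 (SE), and only Itgax passed with the set as a block (limma adjusted p = 0.013). Itgax ranged over 5.55, 6.08 and 6.28 in injured mice and 5.49, 5.69 and 5.88 in sham mice, which overlapped. Ctss, a cathepsin of antigen-presenting cells, differed by 0.29 ± 0.20 (SE).

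Lpl, lipoprotein lipase of fat, muscle and lipid-loaded microglia, was scattered in both groups, over 5.97, 8.23 and 10.89 in injured mice and 6.21, 7.25 and 10.23 in sham mice. Its highest arrays were injured mice 1 and 6 and sham mouse 6. Fabp4, a fatty acid-binding protein of adipocytes, was at 11.4 and 11.8 in those injured mice and 10.8 in that sham mouse. Elsewhere it was 9.67 (injured mouse 4) or less. Cd36, a scavenger receptor for oxidised lipid, was at 7.71 and 7.88 in the same injured mice and 5.97 in the same sham mouse, against 5.02 or less elsewhere. Adipoq, another adipocyte gene, was 7.27 and 8.65 in injured mice 1 and 6 and 5.44 in sham mouse 6. It was 7.90 in injured mouse 4, where Cd36 was 4.72. The mean of 7 adipocyte genes of 10 listed, a list added after the values were seen, was 5.18 to 7.41 in injured and 5.51 to 6.20 in sham mice, and its part in Lpl and Cd36 was not tested. Neither gene passed.

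Of the 5 scavenger and infiltrating macrophage genes 2 rose, beside 2.91% of all genes. Msr1, the class A scavenger receptor that takes up modified lipoproteins and bacteria, ranged over 7.10, 8.01 and 9.58 in injured mice and 5.41, 5.91 and 6.33 in sham mice. The groups did not overlap. The difference was 2.27 ± 0.39 (SE), a 4.84-fold higher signal (limma adjusted p = 0.0052), and 3.05, 1.6 and 2.17 within the 3 sets. A second probe set of Msr1 was 2.22-fold higher (limma adjusted p = 0.0088), and 2 dim ones differed by 0.18 and 0.20 and did not pass.

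Ms4a7, a tetraspan membrane protein of macrophages that homeostatic microglia of the mouse hardly express, ranged over 5.88, 6.58 and 6.78 in injured mice and 4.46, 5.45 and 5.74 in sham mice. The groups did not overlap. The difference was 1.06 ± 0.22 (SE), a 2.09-fold higher signal (limma adjusted p = 0.020). A dim second probe set of Ms4a7 differed by -0.03, and the call was lost without injured mouse 1 or 6 (largest limma adjusted p = 0.052) and in the mean of both probe sets (0.076). Mrc1, the mannose receptor of border macrophages, and Ccr2, the chemokine receptor of inflammatory monocytes, differed by -0.19 ± 0.36 and 0.01 ± 0.20 (SE). Ccr2 ranged over 5.52, 6.14 and 6.60 in injured mice and 5.55, 6.08 and 6.29 in sham mice, and its 3 other probe sets did not pass.

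The size of the differences varied with the set of mouse numbers. The median over the 33 genes was 0.94 in mice 1 and 2, with 31 of 33 above 0, 0.12 in mice 3 and 4, with 17 of 33, and 0.35 in mice 5 and 6, with 22 of 33. In limma's interaction test none of the 33 genes had an injury effect that differed between the sets at an adjusted p under 0.05 (smallest 0.21, Lyz2), while 14 of the 33 had an unadjusted p under 0.05. Over all genes 0% passed and 13.5% had an unadjusted p under 0.05.

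The count of 7 higher genes was read under other settings too, each beside the share of all genes called in the same way. It was 7 with each array centred on its median (2.37% of all genes) and 7 with trend and robust moderation (2.42%), 7 without dim probe sets (4.68%), 8 with the mean of probe sets (3.37%), 8 with array weights (3.61%) and 9 with quantile normalization (4.05%). An equal count need not hold the same genes, and Cd68 and Lgals3 lost the call with centring. With the mouse number as a block the count was 12 (9.68%). By the thresholds of the methods, unadjusted p up to 0.05 with at least a 2-fold change, it was 6 (2.16%). It was 8 without the 4 arrays highest in muscle genes (1.90%), 10 without the 3 sham arrays high in neutrophil genes (2.5%), and 20 when the set was blocked as well, without these 3 (10.5%) or all 5 such arrays (10.4%), which is 1 comparison and not 2, since without its sham arrays the set of mice 3 and 4 adds nothing to a blocked difference. The gene that fell was P2ry12 wherever there was one: with centring (2.3%), quantile normalization (3.50%), without dim probe sets (3.27%), with the mean of probe sets (2.15%), the mouse number as a block (11.4%), the thresholds of the methods (1.82%), without the 3 sham arrays (2.11%) and, with the set as a block, without 3 or 5 arrays (9.63% each). None fell with trend and robust moderation (1.6%), array weights (2.02%) or without the muscle arrays (1.26%). Without the muscle arrays Cd68, Gpnmb, Msr1 and Ms4a7 lost the call (limma adjusted p = 0.067, 0.11, 0.098 and 0.064) over 8 arrays, with differences of 1.81, 1.84, 2.23 and 1.30, and without the 3 sham arrays Gpnmb and Msr1 (0.093 and 0.054).

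Promoters of genes described above, from RefSeq (GRCm38.p6), are shown because PU.1, AP-1 and the regulators of lysosomal genes are known to act on macrophage genes. Each is 300 bases, from 250 before to 50 after the start, 5′ to 3′ on the strand of the gene. Capitals mark the core of the PU.1 site (GAGGAA) in Fcrls (chr3:87263475-87263774, minus strand), Aif1 (chr17:35176003-35176302, minus) and Cd68 (chr11:69666121-69666420, minus), the AP-1 site (TGANTCA) in Gpnmb (chr6:49036268-49036567, plus) and the E-box of lysosomal genes (TCACGTGA) in Ctsd (chr7:142387778-142388077, minus), on either strand. Cd68 also held TGANTCA, which is left in lower case. Lgals3 (chr14:47373610-47373909, plus), which rose, and P2ry12 (chr3:59262936-59263235, minus), which was lower after injury in the blocked fit, held none of the 3. Of the other genes that rose, Ms4a7 has 2 starts in the table and is not printed, and Msr1 is not shown.
Fcrls: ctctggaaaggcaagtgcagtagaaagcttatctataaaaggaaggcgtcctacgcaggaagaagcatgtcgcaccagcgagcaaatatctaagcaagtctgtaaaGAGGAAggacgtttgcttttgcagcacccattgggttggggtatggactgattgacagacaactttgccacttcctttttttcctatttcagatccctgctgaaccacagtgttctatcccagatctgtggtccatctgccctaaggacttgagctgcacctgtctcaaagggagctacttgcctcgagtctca
Aif1: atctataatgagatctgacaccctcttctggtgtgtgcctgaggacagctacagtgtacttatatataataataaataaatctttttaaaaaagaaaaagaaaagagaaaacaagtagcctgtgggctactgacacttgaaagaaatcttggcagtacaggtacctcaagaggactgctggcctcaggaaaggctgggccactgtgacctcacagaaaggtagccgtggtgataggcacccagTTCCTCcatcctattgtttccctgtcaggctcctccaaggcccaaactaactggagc
Cd68: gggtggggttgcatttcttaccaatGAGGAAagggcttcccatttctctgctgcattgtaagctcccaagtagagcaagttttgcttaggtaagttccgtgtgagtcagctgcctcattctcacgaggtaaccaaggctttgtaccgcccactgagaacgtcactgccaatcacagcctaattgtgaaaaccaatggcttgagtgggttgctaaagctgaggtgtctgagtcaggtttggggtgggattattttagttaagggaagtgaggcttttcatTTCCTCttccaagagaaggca
Gpnmb: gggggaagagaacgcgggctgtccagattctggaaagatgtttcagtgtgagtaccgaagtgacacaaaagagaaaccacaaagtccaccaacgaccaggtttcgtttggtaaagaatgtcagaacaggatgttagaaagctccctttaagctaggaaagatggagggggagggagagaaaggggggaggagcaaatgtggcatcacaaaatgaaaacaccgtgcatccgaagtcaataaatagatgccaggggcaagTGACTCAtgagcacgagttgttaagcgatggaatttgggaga
Ctsd: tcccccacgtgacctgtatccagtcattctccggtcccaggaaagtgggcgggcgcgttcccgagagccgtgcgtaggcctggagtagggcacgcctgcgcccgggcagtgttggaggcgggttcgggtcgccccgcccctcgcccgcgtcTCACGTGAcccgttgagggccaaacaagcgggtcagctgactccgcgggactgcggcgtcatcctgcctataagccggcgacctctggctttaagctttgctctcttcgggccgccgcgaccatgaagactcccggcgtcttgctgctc
Lgals3: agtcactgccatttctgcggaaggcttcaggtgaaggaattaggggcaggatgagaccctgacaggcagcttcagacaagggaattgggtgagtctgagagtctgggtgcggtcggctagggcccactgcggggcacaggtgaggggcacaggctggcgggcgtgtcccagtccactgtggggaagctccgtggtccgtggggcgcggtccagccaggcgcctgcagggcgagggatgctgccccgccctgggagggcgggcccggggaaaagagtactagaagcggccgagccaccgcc
P2ry12: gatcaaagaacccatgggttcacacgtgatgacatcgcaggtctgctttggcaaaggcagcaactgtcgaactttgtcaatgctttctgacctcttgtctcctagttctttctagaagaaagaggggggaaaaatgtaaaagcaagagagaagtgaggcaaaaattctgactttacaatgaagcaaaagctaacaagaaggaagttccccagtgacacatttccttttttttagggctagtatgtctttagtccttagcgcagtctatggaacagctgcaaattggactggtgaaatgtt
Of the 35 genes 26 had a promoter in the table. GAGGAA, searched on both strands, was in 14 of the 26 and in 31.3% of 27025 genes, TGANTCA in 5 of the 26 (Cd68, Itgax, Trem2, Gpnmb and Ms4a7) and in 8.97%, and TCACGTGA in Ctsd and Siglech and in 1.12%. Among the promoters of single starts, 28.3%, 7.81% and 0.974% of 32851 held each motif. A match describes the letters and is no evidence of binding.

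Further lists of the same cells moved in part with the genes above. Of 22 measured further microglial genes of 25 listed, 7 rose and none fell, beside 2.91% and 1.87% of all genes. With the smallest p came Golm1, a Golgi protein, which differed by 1.71 ± 0.19 (SE; limma adjusted p = 2.6e-04), Cd14, the lipopolysaccharide co-receptor, by 1.56 ± 0.27 (0.0067), the transcription factor Runx1 by 1.94 ± 0.38 (0.013), and the purinergic receptor P2ry6, which drives microglial phagocytosis, by 1.10 ± 0.22 (0.014). The others, named after their values were seen, were the complement subunits C1qa, C1qb and C1qc, which tag debris for uptake and differed by 0.97 ± 0.22, 1.24 ± 0.26 and 1.44 ± 0.30 (SE; limma adjusted p = 0.034, 0.018 and 0.019). In neurospheres Golm1 had group means of 7.51 to 8.99, well above the array medians of 3.93 to 4.08.

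Of 16 measured disease-associated microglial genes of 20 listed, 2 rose and none fell, beside 2.91% and 1.87% of all genes. The 2 were the cathepsins Ctsb, by 1.24 ± 0.18, and Ctsz, by 1.21 ± 0.18 (SE; limma adjusted p = 0.0019 for each). In neurospheres both were bright too, with group means of 9.09 to 10.17 for Ctsb and 7.24 to 7.69 for Ctsz. The array medians there were 3.93 to 4.08. With the set as a block 6 of the 16 rose and 1 fell, beside 12% and 13.1% of all genes. The gene that fell was Cd83, a surface molecule of activated antigen-presenting cells, by 0.75 (limma adjusted p = 3.2e-05). Of 10 measured ITAM signalling genes of 13 listed none passed or had an unadjusted p under 0.05 in limma. At that unadjusted p 9.02% of all genes were higher and 7.16% lower. Of 9 border macrophage genes only Stab1, a scavenger receptor, rose, beside 2.91% of all genes. Of 10 measured lymphocyte genes none passed or had an unadjusted p under 0.05 in limma, and their mean was 4.33 to 4.97 in injured and 4.45 to 5.16 in sham mice.

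Of 10 measured ligands of 11 listed, 2 rose and 1 fell, beside 2.91% and 1.87% of all genes. Csf1, the ligand of Csf1r, was 8.26 ± 0.22 in injured and 7.55 ± 0.28 in sham mice (SD, n = 6 each), a 1.62-fold higher signal (limma adjusted p = 0.020). Ccl12, a monocyte chemokine that acts on Ccr2 in the mouse, rose by 1.12 ± 0.25 (SE; limma adjusted p = 0.030). Cx3cl1 (fractalkine), the neuronal ligand of Cx3cr1, was 7.81 ± 0.28 in injured and 8.72 ± 0.43 in sham mice (SD, n = 6 each), a 1.88-fold lower signal (limma adjusted p = 0.025). All 6 injured arrays lay below all sham arrays for Cx3cl1, which held for 1.54% of all genes.

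In neurospheres the genes were spread around the array median. The array medians lay at 3.93 to 4.08, and 15 of the 34 measured genes were below the median of their array in all 12 arrays: P2ry12, P2ry13, Siglech, Gpr34, Fcrls, Aif1, Ptprc, Cd53, Cd52, Ctss, Itgax, Msr1, Mrc1, Ms4a7 and Ccr2. Another 11 were above it in all 12. Siglech, a lectin of microglia, spanned 3.24 to 3.58, and Ptprc 3.08 to 3.56. Of the genes that rose after injury, Fcrls, at 3.16 to 3.86, Msr1, at 2.81 to 3.33, Ms4a7 and Aif1 were below the median throughout, and Gpnmb, at 4.09 to 4.94 (lowest and highest), Cd68 and Lgals3 were above it in all 12 arrays. Only Ctsd was above the top decile of all 12 arrays, with Sall1 above it in 6. A probe set below the array median can still hold signal, and one above it need not show expression. Spi1 and Fcer1g, for example, were above it in all 12 arrays, whereas Ptprc and Cd53 were below it in all 12. The neurosphere arrays are of another type and were normalized apart, so that levels are not set against the ependymal arrays.

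**Figure D4:**
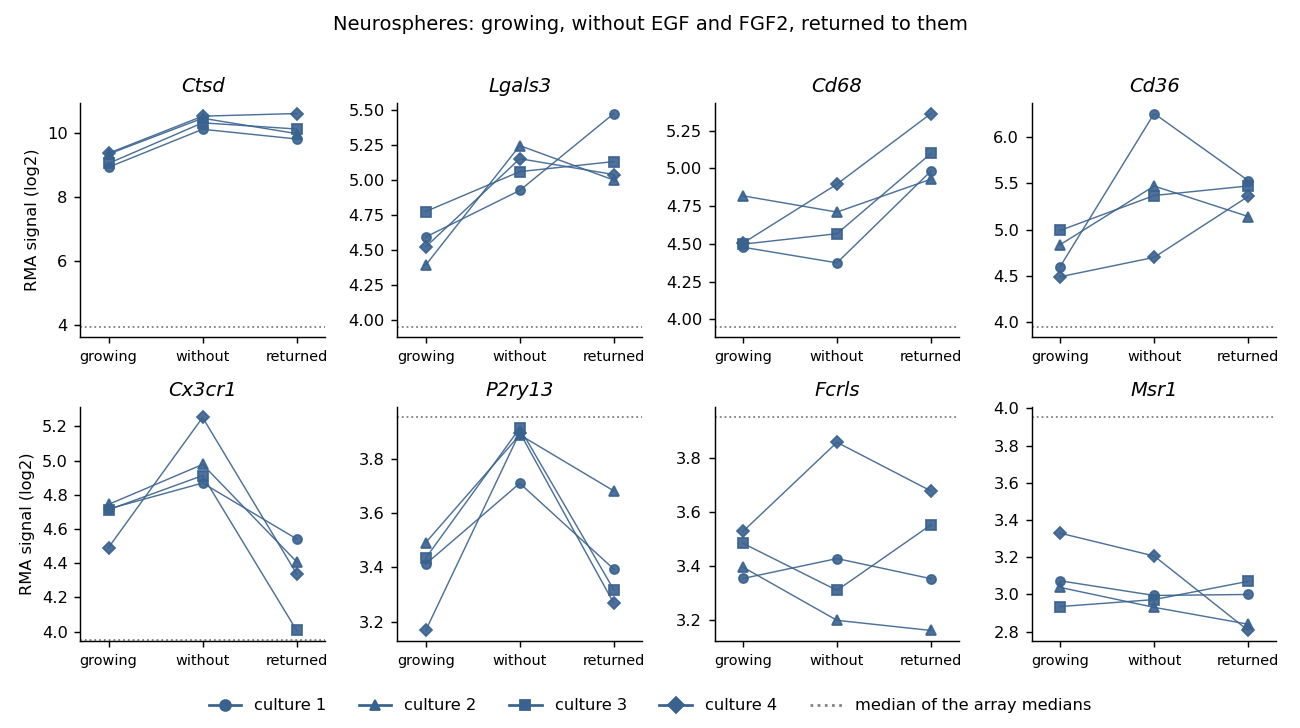
RMA signal (log2) of 8 genes in 4 neurosphere cultures that were growing, without growth factors and returned to them, each culture joined by a line. The dotted line is the median of the 12 array medians. Ctsd lies far above it in every condition, and P2ry13, Fcrls and Msr1 lie below it.

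Without growth factors 4 of the 34 genes rose and 1 fell against growing cultures, beside 12.1% and 16.2% of all genes. Ctsd was 8.93, 9.34, 9.05 and 9.37 in growing cultures, 10.12, 10.46, 10.32 and 10.53 without growth factors and 9.81, 9.98, 10.13 and 10.61 after their return. Growing cultures were lowest throughout, and the other conditions overlapped. The difference was 1.18 ± 0.17 (SE, n = 4 each), a 2.27-fold higher signal without growth factors (limma adjusted p = 2.0e-04), and 0.96 ± 0.17 after return against growing (limma adjusted p = 0.0025).

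Lgals3 was 4.59, 4.39, 4.77 and 4.52 in growing cultures, 4.93, 5.25, 5.06 and 5.15 without growth factors and 5.48, 5.00, 5.13 and 5.04 after return. Growing cultures were again lowest, with no overlap. It was 0.53 ± 0.12 higher without growth factors and 0.59 ± 0.12 higher after return than in growing cultures (SE; limma adjusted p = 0.0069 and 0.0071). Cd68 was 4.48, 4.82, 4.50 and 4.50 in growing cultures, 4.37, 4.71, 4.57 and 4.90 without growth factors and 4.98, 4.93, 5.10 and 5.36 after return. Returned cultures were highest. Cd68 was 0.52 ± 0.13 higher after return than in growing cultures and 0.46 ± 0.13 higher than without growth factors (SE; limma adjusted p = 0.025 and 0.040), and the second call was lost in 9 of the 12 fits that left out 1 array. In some such fits 2 genes in place of 3 were higher after return than in growing cultures. These left out growing culture 1, 3 or 4 or returned culture 3 or 4.

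Cx3cr1, above the array median in all 12 arrays, and P2ry13, below it in all 12, moved too. Cx3cr1 was 4.72, 4.74, 4.71 and 4.49 in growing cultures, 4.87, 4.98, 4.91 and 5.25 without growth factors and 4.54, 4.41, 4.01 and 4.34 after return. It was 0.68 ± 0.12 lower after return than without growth factors (SE; limma adjusted p = 0.0027), and its difference of 0.34 ± 0.12 without growth factors against growing did not pass (0.076). P2ry13 was 3.41, 3.49, 3.43 and 3.17 in growing cultures, 3.71, 3.89, 3.91 and 3.9 without growth factors and 3.39, 3.68, 3.32 and 3.27 after return. Cultures without growth factors were highest, yet all were below the array medians. P2ry13 was 0.48 ± 0.11 higher without growth factors than in growing cultures and 0.44 ± 0.11 lower after return than without them (SE; limma adjusted p = 0.0055 and 0.016). The remaining calls were Fcgr2b, 0.29 ± 0.08 higher, and Lpl, 0.36 ± 0.11 lower, without growth factors than in growing cultures (SE; limma adjusted p = 0.014 and 0.033). The Lpl call was lost with the mean of probe sets. It was also lost when growing culture 1, 2 or 3 or growth-factor-free culture 2 or 3 was left out.

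In all, return against no growth factors had 1 gene higher and 2 lower of 34, beside 10.1% and 6.56% of all genes, and return against growing had 3 higher and none lower, beside 7.86% and 7.43%. At an unadjusted p under 0.05 in limma, 5 genes were higher and 1 lower after return than in growing cultures, beside 12.3% and 14.6% of all genes. None of these counts stood clearly above the share of all genes, and each pair of comparisons shares 4 arrays. Blocking on the mouse, which same-numbered cultures share, added Sall1 and Cd36 as higher without growth factors (limma adjusted p = 0.038 and 0.041) and Sall1 as lower after return (0.0098), giving 6 higher and 1 lower (13.9% and 18.8% of all genes) and 1 higher and 3 lower after return against no growth factors (13% and 8.28%). Csf1, the ligand of Csf1r, averaged 5.80 in growing cultures, 9.03 without growth factors and 8.26 after return, and Cx3cl1 6.93, 6.53 and 7.35. Both passed in all 3 comparisons (largest limma adjusted p = 0.017), whereas Csf1r, at 3.81 to 4.37, passed in none. By the thresholds of the methods 1 gene, Ctsd, was higher and none lower without growth factors (4.14% and 4.49% of all genes), none after return against no growth factors (2.5% and 1.47%) and none against growing (2.55% and 1.01%).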

How the data were processed

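The authors deposited RMA signals on a log2 scale, 1 per probe set, in which background correction, normalization between arrays and summary over probes are already done. The processing notes of the submitters name Affymetrix Expression Console 1.2.1. The ependymal and neurosphere tables, 12 arrays each, come from different array types and were tested apart. Control probe sets were left out, and nothing else was done to the values. Of 45037 ependymal probe sets 28898 named 1 gene, 551 several and 15588 none, and of 41155 neurosphere probe sets 23521, 1820 and 15814. Groups were compared with limma 3.58.1 in R 4.3.3, two-sided, with lmFit and eBayes on every probe set left. The fit was also run on simulated data with independent noise. That simulation held no sets of mouse numbers and no variation shared between genes, so it cannot show how the fit behaves with them. Figures used matplotlib 3.10.9.

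Same-numbered ependymal arrays deviated together (correlation 0.425 to 0.786), through the sets of mouse numbers, although the mice differ. Same-numbered cultures come from 1 mouse (0.160 to 0.391). The number or set as a block was an alternative. Others were centring, quantile normalization, a filter on dim probe sets, trend and robust moderation, array weights, the mean of probe sets, the thresholds of the methods (unadjusted p of at most 0.05, fold of at least 2) and leaving out arrays. Array number limits the precision.

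The genes and lists were chosen with earlier results of these data known. By the rule for named genes, values are given for genes that passed with or without the set as a block and for Cx3cr1, P2ry12, Tmem119, Csf1r, Aif1, Siglech and Sall1. Of each other list they are given for at most 4 that passed, those of smallest p. The values stand per array or as ranges, and for the other lists as means or differences. Ptprc, Tyrobp, Lpl, Cd36, Ccr2, Cd83, the C1q genes, other probe sets of Fcgr2b, Fabp4, Adipoq and the arrays left out were chosen after values were seen. Promoters come from RefSeq.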

Additional observations from a re-analysis of the deposited data

Results flagged for a closer look

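A gap test within groups of 4 or 6 arrays (Dixon's test) marked 11 of 168 groups of values, where chance marks about 1 in 20. On the ependymal arrays Trem2 was 5.7 in sham mouse 3, against 5.25 to 5.41 in the other sham mice, and Ms4a7 was 4.46 in sham mouse 5, against 5.36 to 5.74. In growing cultures Cx3cr1 was 4.49 in culture 4 (others 4.71 to 4.74), Fcer1g 4.67 in culture 3 (4.59 to 4.6), Cd68 4.82 in culture 2 (4.48 to 4.5) and Trem2 3.7 in culture 1 (3.82 to 3.83). Without growth factors P2ry13 was 3.71 in culture 1 (3.89 to 3.91), Tyrobp 4.03 and Ctss 3.44 in culture 4 (3.63 to 3.68 and 3.2 to 3.22), and Itgax 3.52 in culture 2 (3.86 to 3.92). After return Spi1 was 4.22 in culture 3 (4.66 to 4.67).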

How the results depend on the processing

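No call of a gene changed direction under any alternative. Of the 33 genes, 7 rose and 0 fell after injury. With the set of mouse numbers as a block, and likewise with the replicate number as a block, 12 rose and 1 fell. Leaving out single arrays gave 4 to 9 higher (4 without injured mouse 1, 9 without injured mouse 4) and 0 to 1 lower, beside 2.10% to 3.06% and 1.31% to 2.11% of all genes. The alternatives chosen after seeing the data gave 13 higher without the 5 arrays high in neutrophil genes and 20 higher and 1 lower with the set as a block as well, again 20 and 1 without only the 3 sham arrays of these with that block, and 1 lower without it. P2ry12 was the 1 gene lower with centring, quantile normalization, the filter on dim probe sets, the mean of probe sets and the thresholds of the methods too. The count of genes whose injury effect differed between sets stayed 0 with centring and with trend and robust moderation. In neurospheres 4 rose and 1 fell without growth factors, against 0 lower with the mean of probe sets, 1 higher and 0 lower by the thresholds of the methods and 4 to 5 higher and 0 to 1 lower without single arrays. After return 1 rose and 2 fell against no growth factors: 0 rose with trend and robust moderation, with a fit of those groups alone and by the methods, by which 0 fell, and 0 to 1 rose and 2 to 3 fell without single arrays. Against growing cultures 3 rose and 0 fell: Cx3cr1 was 1 lower with array weights, 0 rose by the methods, and 2 to 4 rose without single arrays.

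The number of arrays, 6 or 4 per group, limits the precision, and the spread of the sham mice in leukocyte genes that of the injury comparison. Of the calls after injury, Cd68, Gpnmb and Ms4a7 depended on single arrays, and Lgals3 was lost with array weights (limma adjusted p = 0.099) and, like Cd68, with centring (0.055 and 0.052). The cause was not tested.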
